A study of Mus musculus with 18 samples.

Results

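Ugi, a protein inhibitor of uracil-DNA glycosylase, was compared with an empty vector in cells that carried active AID. The comparison rests on 6 of the 18 libraries of the series, 3 with Ugi and 3 with the empty vector (Control), numbered by experiment 1 to 3 in the sample titles. All 18 libraries hold PCR product of mOrangeSTOP, a fluorescent protein gene with an in-frame stop codon, amplified from genomic DNA of NIH-3T3 cells, a mouse fibroblast line. The cells of both groups were co-transduced with retroviral vectors for mOrangeSTOP and for AID-ER, a fusion of AID with an estrogen receptor domain. They were selected with puromycin or hygromycin and then grown with 1 µM OHT, which binds that domain, for 11 days. The third vector carried Ugi in one group and nothing in the other, so the Control cells still had their own glycosylase. The matching libraries with AID-E58Q, the catalytically inactive enzyme, with Ugi or Control and the same treatment (3 each), gave the background of PCR and sequencing. The amounts of Ugi, of AID and of glycosylase activity in the cells are not analysed here. Nothing in the labels states that each experiment had its own transduction, and p-values therefore cover the spread among these libraries alone, part of which may be technical.

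AID turns cytosine into uracil in single-stranded DNA. Uracil pairs like thymine, so replication past it leaves a C-to-T change, a transition, which reads as G-to-A when the cytosine was on the other strand. UNG, the main nuclear uracil-DNA glycosylase, cuts the uracil base out and leaves an abasic site, and polymerases that copy past such a site can insert any base, which gives transversions as well as transitions. In B cells this step shapes somatic hypermutation, the process that diversifies antibody genes. AID prefers cytosines in WRC (W stands for A or T and R for a purine), above all WRCY (Y stands for a pyrimidine), and disfavours those in SYC (S stands for C or G).

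Positions were counted from the first base of the reporter's coding sequence, of which 679 bases were listed, from 45 to 723. The 674 with at least 1000 calls of Phred quality over 20 in all 18 libraries were kept, and 5 (700 to 704) were left out. They hold 426 C:G pairs (221 with C and 205 with G on the coding strand) and 248 A:T pairs. By the sequence on the strand with the cytosine, 13 C:G positions were the C or G of an AGCT, a WRCY hotspot on both strands. Another 23 were other WRCY, 30 were WRC followed by a purine, 139 were SYC and 221 were placed in none of these. The 221 include position 45, whose cytosine follows AA and so lies in WRC, but whose following base is not listed. Frequencies are given as substituted calls per 10000 calls. The 6 libraries held 60868028 to 91873261 calls, with a median of 90835 to 127614 per position. In Control 2, Control 3 and Ugi 3 the reads at positions 45 to 59 stopped near the same number, as at a ceiling, so coverage there may be too low. Intervals below cover counting error only, since the PCR products carried no molecular identifiers.

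The sites listed here, which are named below, differ in the bases on both sides of the cytosine. Their 5 bases are shown 5′ to 3′ on the strand with the targeted cytosine, which is the capital letter, because the kind of transversion differed between these contexts.
position 151: agCtg
position 580: agCtg
position 231: agCta
position 384: agCtt
position 399: aaCtt
position 261: taCtt
position 708: taCtt
position 134: agCcc
position 178: tgCcc
position 602: tgCcg
Positions 151 and 580 are the C, and positions 231 and 384 the G, of an AGCT. Positions 261, 399, 708, 134, 178 and 602 lie in other WRCY motifs.

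C-to-G changes, read as G-to-C from the other strand, made up most of the transversions that fell with Ugi in the fit without a block. Each of the 3 possible substitutions at each position was tested with edgeR, 1961 pairs of position and substitution in all. Of these, 12 were lower with Ugi (0.612% of the pairs tested) and 0 were higher (0%), against 91 lower and 110 higher at an unadjusted p under 0.05. Among the 12, 11 were C-to-G changes: 8 at AGCT (C151G, G231C, G267C, C268G, G384C, C385G, G513C and C580G) and 3 at other WRCY positions (G207C, C261G and G708C). The twelfth, G45T, lies at the first base of the table, inside the stretch at the apparent ceiling. Its cytosine follows AA and so lies in WRC, but the base after it is not in the table. All 11 C-to-G calls had T after the cytosine, a split made after their values were seen. For the 8 at AGCT the motif itself fixes that T. With the experiment as a block, 60 pairs were lower (3.06%) and 91 higher (4.64%). The block was a shift of each experiment common to all groups of the series, not only to Ugi and Control with AID. DESeq2 called 42 lower (2.14%) and 41 higher (2.09%).

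The count of 12 depended on single libraries. It was 0 without Ugi of experiment 1 or of experiment 2, and 4 without Control of experiment 3, without AID-E58Q Ugi of experiment 1 or 2, or without AID-E58Q Control of experiment 1. It was 0 without experiment 1 or 2 as a whole and 20 without experiment 3. It was also 0 with only the 2 compared groups fitted, and 38 lower and 19 higher when the block was added to those groups. With the block and all groups, leaving out experiment 1, 2 or 3 gave 46, 74 and 28 lower and 59, 77 and 17 higher.

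The largest measured loss of transversions was at position 151, in codon 51, where C-to-G turns leucine into valine. C151G stood at 83.3, 53.3 and 127 per 10000 calls in Control of experiments 1, 2 and 3, and at 4.91, 5.20 and 6.09 with Ugi. The 3 Ugi libraries lay close together and far below all 3 Control libraries (log2 fold change -4.02, SE 0.69, adjusted p = 0.0137, edgeR). The AID-E58Q libraries held 1.2 ± 0.738 (SD, n = 3) with Control and 1.42 ± 0.340 with Ugi, so a small frequency above background was left with Ugi at this site. C-to-A at the same base, C151A, stood at 6.85, 2.87 and 16.0 in Control and at 3.84, 4.08 and 0.682 with Ugi. There the groups overlapped, and the difference did not pass (log2 fold change -1.58, SE 0.85, adjusted p = 0.545, edgeR).

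Position 580, in the AGCT of codon 194, showed the same order of the groups. C580G stood at 35.9, 21.7 and 47.5 in Control and at 1.30, 0.428 and 3.08 with Ugi, with no overlap (log2 fold change -4.43, SE 0.95, adjusted p = 0.0404, edgeR). G384C, which turns lysine 128 into asparagine, stood at 48.0, 30.6 and 60.1 in Control and at 2.1, 0.425 and 4.42 with Ugi. Here too the lowest Control library was far above the highest Ugi library (log2 fold change -4.32, SE 0.76, adjusted p = 0.0137, edgeR). Its neighbour in the same palindrome, C385G, stood at 19.9, 7.54 and 35.7 in Control and at 1.46, 0.852 and 0.622 with Ugi, again apart.

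The groups did not overlap for C-to-G at any of the 13 AGCT positions, and 13 of 13 were lower with the block, against 8 of 13 without it. Over all 2022 pairs of position and substitution, the 3 Ugi libraries lay wholly below the 3 Control libraries in 5.14% and wholly above them in 3.21%. The median log2 fold change of the 13 was -4.02, against -0.17 for C-to-G at the positions grouped as other C:G. Averaged over the 13, C-to-G stood at 37.1, 18.5 and 55.9 in Control and at 1.96, 1.18 and 3.69 with Ugi, or 0.0529, 0.0638 and 0.0660 of Control within experiments 1, 2 and 3. These folds include the background. As excess over AID-E58Q, the Ugi level was 0.0202, 0.0176 and 0.0497 of Control. The 2 pairs just inside the threshold were C261G (adjusted p = 0.0469) and G513C (adjusted p = 0.0475), and the 2 just outside were C618T and C232G (adjusted p = 0.0581 each, edgeR). C232G, in the AGCT that overlaps the stop codon, stood at 33.0, 22.6 and 56.8 in Control and at 2.06, 0.623 and 3.84 with Ugi, so it missed the threshold although its groups did not overlap.

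Outside AGCT, 3 WRCY positions passed for C-to-G, each with T after the cytosine. G207C stood at 8.04, 7.87 and 9.93 in Control and at 1.09, 0.776 and 1.68 with Ugi. C261G, which turns tyrosine 87 into a stop codon, stood at 4.79, 8.76 and 4.44 in Control and at 0.751, 0.336 and 0.704 with Ugi. In both, every Control library was above every Ugi library. G708C was counted 2, 12 and 16 times in Control and 0 times in each of the 3 Ugi libraries, at a coverage of 6848, 5290 and 15836 calls. Taking 3 counts over the 3 Ugi libraries as the limit, it was at least 9.39-fold lower with Ugi (adjusted p = 0.0404, edgeR). Position 708 lies near the end of the amplified stretch, where coverage was far below the medians. Of the 22 tested C-to-G pairs at WRCY outside AGCT, 3 were lower, and 8 with the block.

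C-to-A changes, read as G-to-T from the other strand, passed the threshold only with the experiment as a block, apart from G45T. With the block, 22 C-to-A pairs were lower, 9 at WRCY outside AGCT, 5 at WRC followed by a purine, 4 at AGCT and 4 at other C:G positions. At WRCY outside AGCT the Control libraries averaged 4.20, 2.47 and 10.5, and the Ugi libraries 1.87, 1.24 and 1.33, with no overlap. Within experiments 1, 2 and 3 the Ugi average was 0.444, 0.503 and 0.126 of Control. G134T and C178A are given as examples chosen after their values were seen. Both have C after the cytosine, while 11 of the 21 C-to-A pairs called with the block at positions with a known following base have T there and 4 have C. G134T stood at 8.21, 3.67 and 12.2 in Control and at 1.99, 0.561 and 1.15 with Ugi (adjusted p = 0.0875 without the block and 0.00536 with it, edgeR). C178A stood at 4.30, 2.12 and 7.40 in Control and at 0.958, 0.151 and 1.02 with Ugi (adjusted p = 0.139 and 0.00733, edgeR), and neither pair overlapped.

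**Figure D1:**
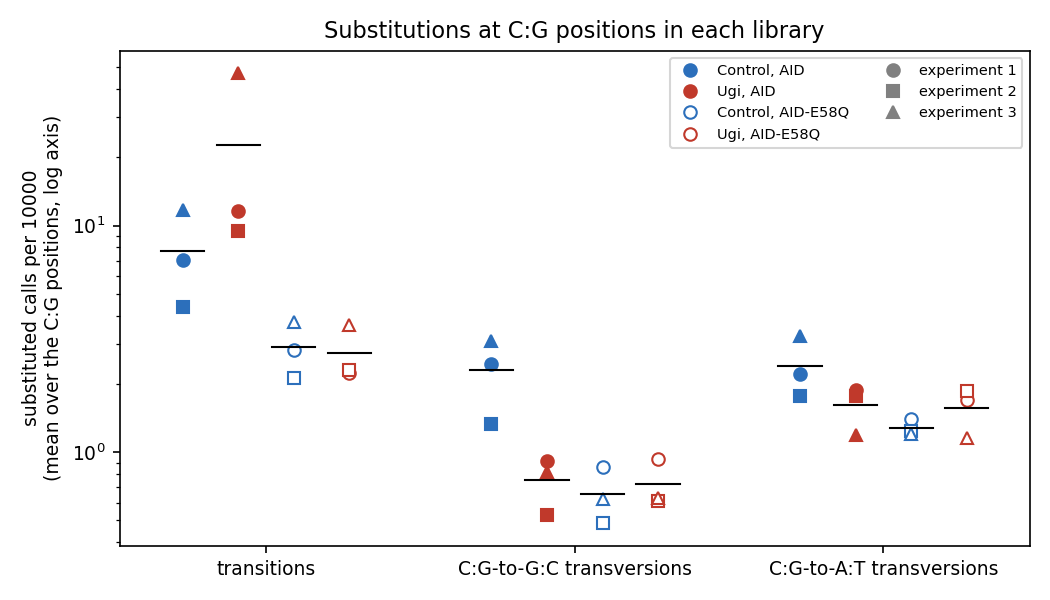
Mean frequency over the 426 C:G positions, in substituted calls per 10000 on a log axis, of transitions and of each kind of transversion, with 1 point per library and a bar at each group's mean. C:G-to-G:C changes of the 3 Ugi libraries with AID (0.911, 0.531 and 0.815) lie within the range of the AID-E58Q libraries (0.487 to 0.938) and below all 3 Control libraries with AID (2.45, 1.33 and 3.11), while transitions of Ugi with AID reach 46.9.

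Averaged over all positions of a base, transversions at C and G were lower with Ugi as well, while those at A and T overlapped between the groups. C-to-G stood at 2.27, 1.35 and 2.70 in Control and at 1.03, 0.571 and 0.829 with Ugi, and G-to-C was 0.295, 0.374 and 0.225 of Control within experiments 1, 2 and 3. Neither overlapped between groups. G-to-T was 0.795, 0.878 and 0.332 of Control, without overlap, and C-to-A was 0.911, 1.15 and 0.414 of Control, with overlap. For the 3 that did not overlap, the exact two-sided permutation test over the 6 libraries gave p = 0.1, the smallest that 3 libraries against 3 can give, and 0.4 after adjustment over the 12 substitutions. The 6 substitutions at A:T pairs overlapped between the groups and stood at 0.818 to 1.2 of Control within an experiment. A-to-C and T-to-G were several times higher in experiment 3 than in experiments 1 and 2 in both groups and also with AID-E58Q, so A-to-C averaged 4.47 with Ugi and 4.54 with Control in that experiment, against 0.446 to 0.757 in the others.

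The excess over AID-E58Q of the same arm and experiment gives the share of AID-dependent substitutions that were transversions. Summed over the C:G positions, that share was 36.3%, 37.9% and 36.4% in Control and 1.68%, -2.47% and 0.507% with Ugi. The means were 36.9% ± 0.856 and -0.0950% ± 2.14 (SD, n = 3 each; exact two-sided permutation p = 0.1, the smallest possible), and a share below 0 means that the AID library held fewer transversions than its AID-E58Q library. At 1 site the AID-E58Q libraries themselves stood apart: G294T stood at 93.5 and 108 in the AID-E58Q Ugi libraries of experiments 1 and 2 and at 0.701 to 2.00 in the other 10 libraries of these arms. Without position 294 and positions 45 to 59, the Ugi mean was 1.86% and the Control mean 36.8%. C143A also varied, at 64.3, 66.0 and 2.66 with Ugi, at 35.4, 22.9 and 10.5 in Control, and at 5.07 to 47.0 with AID-E58Q.

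By motif, the Control share of transversions was 37.8% ± 0.834 at AGCT, 37.2% ± 1.24 at other WRCY, 24.1% ± 3.39 at WRC followed by a purine and 38.2% ± 1.38 at the other C:G positions. With Ugi the means of these 4 groups of positions lay between -1.99% and 0.495%. The other C:G positions include position 294, whose AID-E58Q Ugi background was high in experiments 1 and 2. Subtracting it lowers the Ugi share of that group in both experiments. At SYC the total excess was small, at 0.673 ± 0.268 per 10000 calls in Control and 0.982 ± 1.31 with Ugi. Its transversion share was therefore unstable, at 57.8% ± 30.3 in Control and 84.2% ± 131 with Ugi (SD, n = 3 each). The kind of transversion also varied between motifs. C-to-G made up 85.2% ± 7.96 of the Control transversion excess at AGCT, 53.4% ± 14.6 at other WRCY, 34.2% ± 10.9 at WRC followed by a purine and 38.7% ± 5.01 at other C:G positions (SD, n = 3 each). With Ugi the excess over all C:G positions was -0.0272, -0.0791 and 0.184 per 10000 calls for C-to-G and 0.187, -0.0940 and 0.0360 for C-to-A, against at least 0.839 and 0.537 in Control. The background at position 294 lowers the C-to-A values with Ugi of experiments 1 and 2 as well.

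The 2 kinds of transversion were also split by the base after the cytosine, chosen after the values were seen and therefore given as a description. At WRC hotspots outside AGCT, C-to-G made up 70.9% ± 12.1 of the Control transversion excess where T followed (10 positions), 52.1% ± 15.8 where A followed (15), 20.2% ± 14 where G followed (15) and 12.7% ± 3.85 where C followed (13). The 3 Control libraries spanned 57.8% to 81.7% with T and 8.25% to 15.1% with C, so these 2 sets did not overlap. The base before the cytosine differed between the same sets: it was A at 9 of the 10 positions followed by T, and G at 12 of the 13 followed by C. Over all C:G positions, C-to-G made up 71.4% ± 9.01 of the Control transversion excess after AA, 78.6% ± 9.03 after AG (AGCT included), 57.3% ± 16.8 after TA and 35.8% ± 17.3 after TG. At WRC outside AGCT, the bases before and after the cytosine cannot be told apart between the sets followed by T and by C. The sets followed by A and by G were nearly alike in the preceding base, which was A at 8 of 15 and 7 of 15. Their Control libraries spanned 35.9% to 67.4% and 9.41% to 36.1%, which overlapped slightly. At AGCT, where G precedes and T follows, the value was 85.2% ± 7.96. Of all the C:G positions, 29 of 91 tested C-to-G pairs with T after the cytosine were lower with the block. That compares with 2 of 73 with A, 3 of 129 with C and 2 of 105 with G after it. For C-to-A the counts were 11 of 93, 2 of 74, 4 of 136 and 4 of 113 in the same order of T, A, C and G. The counts with T include AGCT, where the motif fixes the T. There 13 C-to-G and 4 C-to-A pairs were lower with the block.

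Mean transitions were higher with Ugi than with Control in all 3 experiments, by an amount that differed widely between them. Averaged over its positions, C-to-T stood at 5.88, 3.56 and 9.42 in Control and at 10.9, 8.57 and 42.6 with Ugi, or 1.86, 2.41 and 4.53 times Control. G-to-A was 1.48, 1.98 and 3.66 times Control. Each Ugi library was above the Control library of its own experiment, but the groups overlapped, because Control of experiment 3 was higher than Ugi of experiment 2 (exact two-sided permutation p = 0.2 and 0.3, and 0.6 and 0.72 after adjustment). Without Ugi of experiment 3 the ratio of the means on the log2 scale was 0.73 for C-to-T and 0.42 for G-to-A, against 1.45 and 1.14 with it.

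By position, edgeR called 0 of 674 transitions higher and 0 lower with Ugi (0% in each direction), against 130 higher (19.3%) and 4 lower (0.593%) at an unadjusted p under 0.05. With the experiment as a block, 112 were higher (16.6%) and 1 lower (0.148%), and DESeq2 called 65 higher (9.64%) and 2 lower (0.297%). All 112 were C:G positions: 9 of 13 at AGCT, 20 of 23 at other WRCY, 14 of 30 at WRC followed by a purine, 3 of 139 at SYC and 66 of 221 at the other C:G positions. The unblocked count of 0 also moved with single libraries: it was 42 without Ugi of experiment 1, 66 without Ugi of experiment 2, 19 without Control of experiment 3, and 21 without experiment 3 as a whole. With the block, 30 were higher without experiment 3, against 94 and 92 without experiment 1 or 2.

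The 10 largest upward differences were chosen among those with an unadjusted p under 0.05 and no overlap between groups, and none of them passed the adjustment without the block. C399T, silent in asparagine 133, stood at 4.82, 1.62 and 14 in Control and at 32.4, 25.5 and 260 with Ugi. Every Ugi library was above every Control library (log2 fold change 3.96, SE 1.09, adjusted p = 0.110, and 0.00101 with the block, edgeR). C618T, silent in isoleucine 206 and outside the WRC motif, stood at 7.39, 0.589 and 7.86 in Control and at 56.6, 27.0 and 119 with Ugi (adjusted p = 0.0581, and 5.68e-04 with the block, edgeR). G93A, silent in glutamate 31, stood at 11.4, 0.993 and 28.0 in Control and at 87.3, 89.4 and 246 with Ugi (adjusted p = 0.157, and 0.00128 with the block, edgeR). These 3 sites thus carried transitions in a few calls per 10000 or fewer in Control of experiment 2 and in at least 25.5 with Ugi of that experiment. The other transitions of the list were C309T, C261T, C678T, C536T, G45A and C641T, at log2 fold changes of 2.96 to 3.65, and all 6 passed with the block. The tenth was G112C, a transversion at an SYC position with at most 0.447 per 10000 calls in any of the 6 libraries, which passed neither fit (adjusted p = 0.227, and 0.0973 with the block, edgeR).

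**Figure D2:**
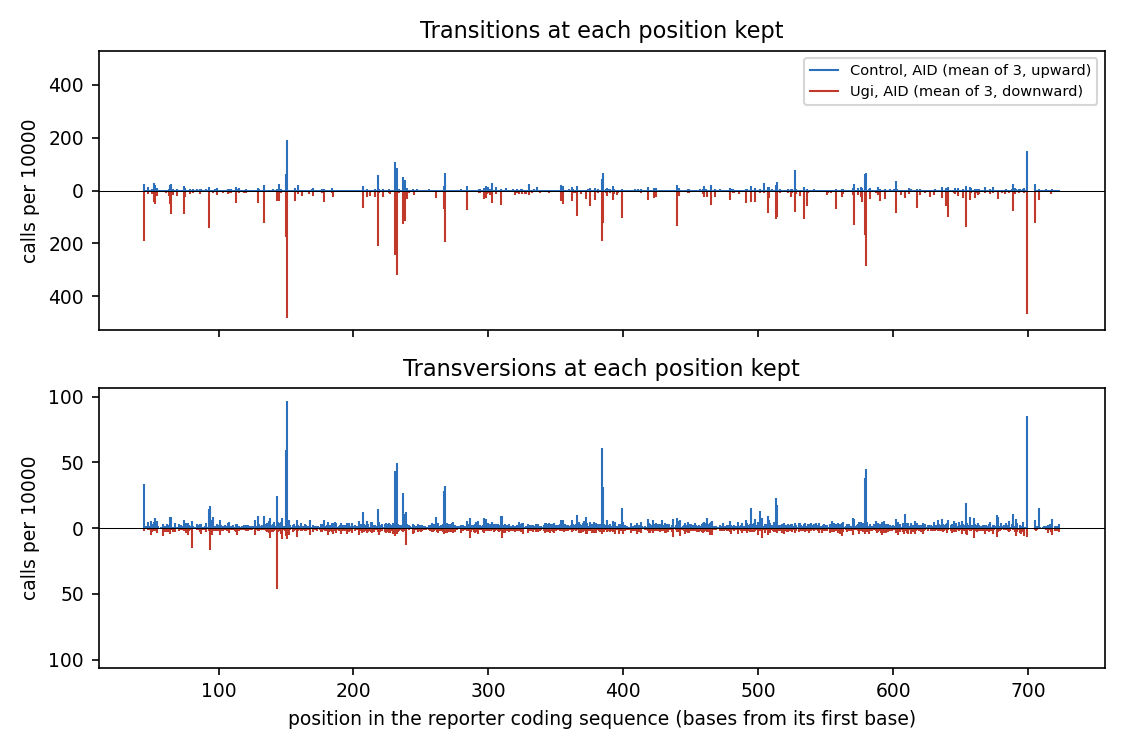
Mean frequency of transitions (upper panel) and transversions (lower panel) at each of the 674 positions, in calls per 10000, with Control and AID drawn upward and Ugi and AID downward, on the same scale within a panel. At position 151 transitions stand at 193 in Control and 482 with Ugi, and transversions at 96.6 and 8.27, while the tall Ugi transversion bar lies at position 143, where AID-E58Q libraries are high too.

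The fold in transitions was not largest where their Control level was highest. At AGCT, the sites with the highest Control levels, transitions averaged 69.8, 34.7 and 120 in Control and 120, 87.8 and 469 with Ugi, or 1.72, 2.53 and 3.91 times Control. At other WRCY they averaged 15, 7.84 and 31.0 in Control and 36.4, 34.3 and 187 with Ugi, or 2.43, 4.37 and 6.04 times. Within each experiment the fold was thus larger at WRCY outside AGCT than at AGCT. At WRC followed by a purine it was 1.79, 2.16 and 4.44, and at SYC it was 0.649, 0.774 and 1.35, with levels there of 1.37 to 4.97 in all 6 libraries.

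The share of the whole C:G excess that lay at AGCT was 48.9%, 44.4% and 45.9% in Control and 38.2%, 36.1% and 32.8% with Ugi. The share at other WRCY was 14.7%, 12.3% and 17.9% in Control and 19.3%, 23.9% and 22.6% with Ugi, and the groups overlapped in neither. WRCY as a whole held 61.4% ± 4.07 in Control and 57.6% ± 2.30 with Ugi (SD, n = 3 each), and these overlapped. No test was made of these shares.

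At each of the 13 AGCT positions the 2 groups overlapped in transitions, and none passed without the block. C151T stood at 205, 88.5 and 286 in Control and at 295, 197 and 952 with Ugi, where the groups overlapped (log2 fold change 1.32, SE 0.78, adjusted p = 0.653, and 0.119 with the block, edgeR). C580T stood at 58.2, 37.0 and 109 in Control and at 179, 108 and 572 with Ugi, with overlap of Control of experiment 3 and Ugi of experiment 2 only, and passed with the block (adjusted p = 0.345, and 0.0178 with the block, edgeR). In this fit of all substitutions, 5 of the 13 AGCT transitions passed with the block (C232T, G267A, G384A, G513A and C580T), and 19 of 23 at other WRCY did. The separate fit of transitions per position, with its own estimate of the spread and adjustment over 674 positions, gave the 9 of 13 and 20 of 23 above. C151T passed with the block in that fit (adjusted p = 0.0396) and not in this one.

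The difference in transitions was larger than that in transversions in each experiment. Over the C:G positions, the Ugi excess exceeded the Control excess in transitions by 5.15, 4.92 and 35.4 per 10000 calls in experiments 1, 2 and 3, and fell short of it in transversions by 2.25, 1.55 and 4.31. The gain was 2.29, 3.18 and 8.21 times the loss. These sums include position 294, whose high AID-E58Q Ugi background in experiments 1 and 2 adds to the loss there. At AGCT the gain was 50.5, 51.5 and 349 and the loss 37.4, 21.4 and 69.2, a ratio of 1.35, 2.41 and 5.04. At other WRCY the ratio was 3.83, 7.37 and 10.4. The total excess with Ugi was 1.44, 1.93 and 3.50 times that of Control (exact two-sided permutation p = 0.4). Substitutions of all kinds were higher with Ugi in all 3 experiments at 196 of 674 positions (29.1%) and lower in all 3 at 51 (7.57%). The groups did not overlap at 34 positions that were higher (5.04%) and 3 that were lower (0.445%). In all 3 experiments, 7 of 13 AGCT and 18 of 23 other WRCY positions were higher with Ugi. So were 19 of 30 at WRC followed by a purine, 32 of 139 at SYC and 88 of 221 other C:G positions. Positions lower in all 3 experiments numbered 0, 0, 0, 10 and 2 in that order. Where A or T precedes the A of an A:T pair, 9 of 74 were higher and 17 lower. At the other A:T pairs, 23 of 174 were higher and 22 lower.

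The ratio of transversions to transitions at a site compares the 2 outcomes within 1 library. Its counts include the background, and a rise in transitions over unchanged transversions also lowers it. The ratio was lower with Ugi at 53 of 674 positions (7.86%) and higher at 0 (0%; edgeR, with 104 lower and 0 higher at an unadjusted p under 0.05), and lower at 117 (17.4%) with the block. All 53 were C:G positions: 13 of 13 at AGCT, 16 of 23 at other WRCY, 10 of 30 at WRC followed by a purine, 0 of 139 at SYC and 14 of 221 at the others. Leaving out Ugi of experiment 3 gave 29, Control of experiment 2 gave 34, and all libraries of experiment 1 or 2 gave 22 and 29. A fit of the 2 compared groups gave 34, and 14 when it had the block. Transversions as a sum were lower at 17 positions (2.52%; 39, or 5.79%, with the block; 26, or 3.86%, with DESeq2; 50, or 7.42%, at an unadjusted p under 0.05) and higher at 0 (0%). The 17 were 11 of 13 at AGCT, 4 of 23 at other WRCY and 2 of 221 at the others. None lay at SYC or at WRC followed by a purine. Without Ugi of experiment 1, 2 or 3 the 17 became 0, 0 and 1, without Control of experiment 1 or 3 they became 4 and 2, and without AID-E58Q Ugi of experiment 3 or AID-E58Q Control of experiment 2 they became 11 each. Without experiment 1, 2 or 3 as a whole they became 0, 1 and 2.

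At the 36 WRCY positions, AGCT included, the share of transversions among the substituted calls ranged in the Control means from 15.4% at position 602 to 76.0% at position 261. At position 602 it was 13.3%, 14.9% and 18% in Control and 7.43%, 11.6% and 1.56% with Ugi. At position 261 it was 66.4%, 93.8% and 67.9% in Control and 19.2%, 13.8% and 2.42% with Ugi. The Ugi mean of position 261, 11.8%, was below the Control mean of position 602. The Ugi means of the 36 lay between 0.251% at position 708 and 15.2% at position 583, and 35 of 36 had every Ugi library below every Control library, against 15.3% of all 674 positions (1.19% had every Ugi library above). The exception was position 583, at 31.6%, 35.3% and 27.9% in Control and 30.9%, 12.7% and 2.04% with Ugi. As excess over AID-E58Q, the mean Ugi share was 0.139% ± 1.51 at AGCT and 0.495% ± 1.92 at other WRCY (SD, n = 3 each). The shares of substituted calls at the 36 positions include the background.

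The spread of that share in Control went with the bases after the cytosine, in a split that was also chosen after the values were seen and that shares the difference in preceding bases. The 10 hotspots followed by TT had a median of 65.1% (34.5% to 76.0%), the 13 followed by T and another base a median of 36.9% (24.4% to 59.1%), and the 13 followed by C a median of 29.4% (15.4% to 48.6%). With Ugi these medians were 5.61%, 2.69% and 6.78%. The order of the Control medians was the same in each of the 3 experiments, at 64.0%, 69.3% and 58.8% for TT, 37.7%, 35.7% and 36.3% for T with another base, and 24.7%, 33.3% and 25.7% for C. The G of an AGCT can be followed on its strand by another base than the C of the same AGCT, and then their shares differed: at the palindrome of positions 384 and 385 the Control means were 60.9% (agCtt) and 29.9% (agCtg).

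**Figure D3:**
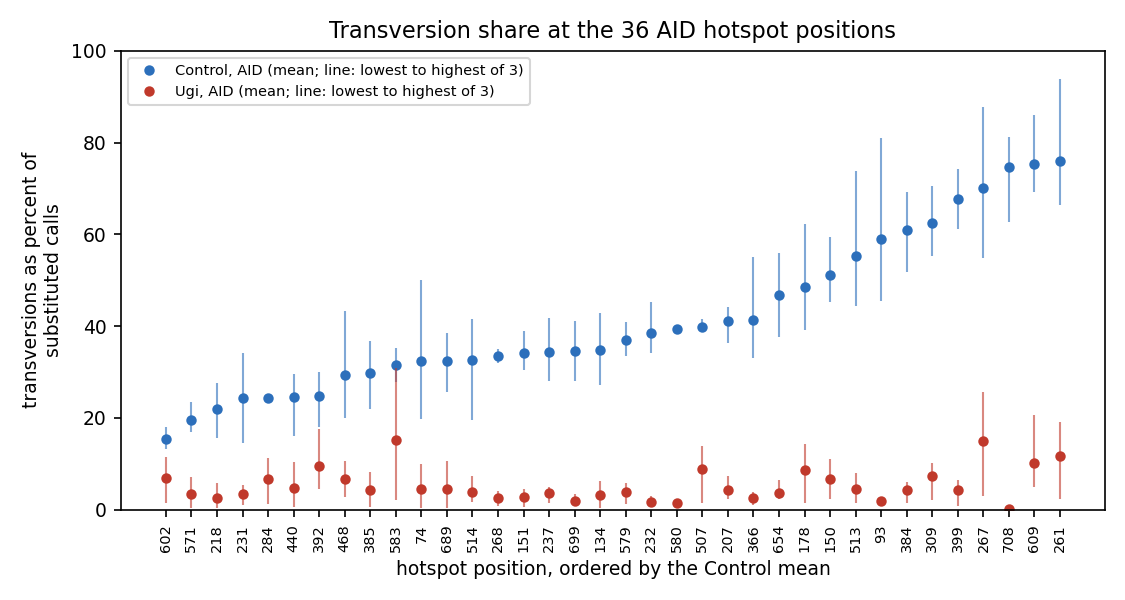
Transversions as a percentage of the substituted calls at each of the 36 WRCY positions, AGCT included, ordered by the Control mean, with points for the mean and lines from the lowest to the highest of 3 libraries. Control means climb from 15.4% to 76.0%, while Ugi means stay between 0.251% and 15.2%, and the lines overlap at position 583 alone. Both include the background.

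The 2 cytosines of an AGCT lie on opposite strands at neighbouring positions, and their relative use was not the same at every palindrome. C-to-T at the C over G-to-A at the G was 4.16 ± 1.62 in Control and 4.49 ± 2.38 with Ugi at positions 150 and 151, so the coding-strand cytosine carried more transitions there in both groups. At positions 231 and 232 the ratio was 0.691, 0.815 and 0.823 in Control and 1.15, 1.23 and 1.39 with Ugi, with no overlap. This was the only one of 6 palindromes measured on both strands at which G-to-A was the more frequent in all 3 Control libraries and C-to-T in all 3 Ugi libraries, as read after the values were seen. The groups overlapped at the other palindromes except positions 579 and 580. There the ratio was 0.898, 0.923 and 1.34 in Control and 2.14, 1.42 and 1.67 with Ugi. At positions 384 and 385 it was 2.17, 2.28 and 1.04 in Control and 1.01, 1.74 and 0.503 with Ugi, which overlapped.

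The stop codon of the reporter, TAG at codon 77, has its G at position 231 inside an AGCT, so the kind of substitution decides whether the codon stays a stop. G231A leaves TAA, still a stop codon, while G231C and G231T give tyrosine. G231C stood at 24.8, 6.51 and 73.0 in Control and at 2.47, 0.880 and 2.96 with Ugi (log2 fold change -4.04, SE 0.87, adjusted p = 0.0404, edgeR). The spread among Control libraries was wide, yet the lowest of them was above the highest Ugi library. G231T stood at 10.3, 1.97 and 12.8 in Control and at 4.22, 5.01 and 1.80 with Ugi, where the groups overlapped (adjusted p = 0.773, edgeR).

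Calls that lose the stop, G231C and G231T together, stood at 35.2 (95% interval 31.8 to 38.7, exact Clopper-Pearson), 8.48 (7.14 to 9.99) and 85.8 (81.3 to 90.5) per 10000 calls in Control. With Ugi they stood at 6.69 (5.39 to 8.20), 5.89 (4.57 to 7.48) and 4.77 (3.74 to 5.99). The groups did not overlap, but in experiment 2 the interval of Ugi reached that of Control. The AID-E58Q libraries averaged 3.06 ± 0.182 with Control and 3.53 ± 1.18 with Ugi. G231A, which keeps the stop, stood at 108, 49.6 and 166 in Control and at 159, 102 and 473 with Ugi (log2 fold change 1.18, SE 0.71, adjusted p = 0.659, edgeR). Of the substituted calls at position 231, 24.5%, 14.6% and 34.1% lost the stop in Control and 4.04%, 5.45% and 0.999% with Ugi, while the total of substituted calls there was 1.15, 1.86 and 1.90 times Control.

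**Figure D4:**
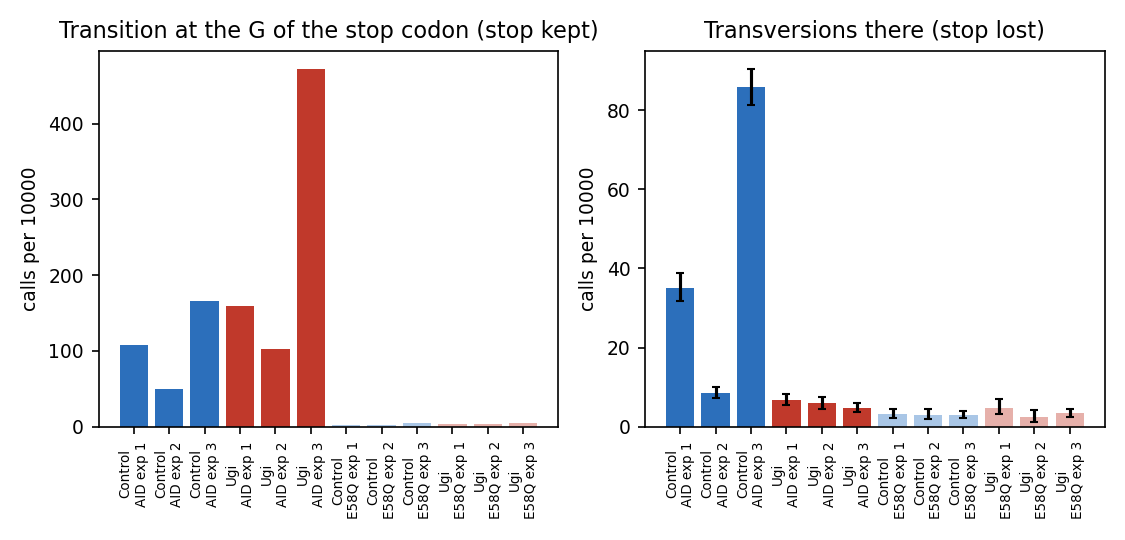
Substituted calls per 10000 at position 231 in each of 12 libraries, with the transition that keeps the stop codon on the left and the transversions that lose it on the right, with 95% exact binomial intervals that cover counting error only. With AID the transition is highest with Ugi of experiment 3 (473), and loss of the stop reaches 85.8 with Control of experiment 3 and at most 6.69 with Ugi.

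The same holds for the coding effect at the other AGCT positions, since in this reporter all 13 transitions at AGCT are silent and the 26 transversions are missense (24) or lose the stop (2). Changes were then weighted by the excess over AID-E58Q at the C:G positions of whole codons up to the final stop codon, which leaves out position 45. Silent changes made up 50.7%, 48.2% and 46.7% in Control and 70.6%, 69.7% and 65.4% with Ugi. Missense changes made up 46.5%, 48.8% and 49.1% in Control and 27.3%, 28.4% and 32.7% with Ugi, and neither overlapped. G294T, a missense change with a high AID-E58Q Ugi background in experiments 1 and 2, lowers the missense share with Ugi in both. New stop codons made up 2.36% ± 0.565 in Control and 1.93% ± 0.145 with Ugi (SD, n = 3 each), within the spread of Control. Of the 91 rises with the block, 58 were silent, 29 missense and 3 made a stop codon. Of the 60 falls, 52 were missense and 2 silent. These counts were not tested against all possible changes. Of possible transitions, 13 of 13 were silent at AGCT, 12 of 23 at other WRCY and 13 of 30 at WRC followed by a purine. At SYC it was 42 of 139, and at the other C:G positions 135 of 221. Of possible transversions, 24 of 26, 42 of 46, 37 of 60, 211 of 278 and 279 of 442 were missense, in that order.

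The same comparison in AID-E58Q libraries was set against the one with AID, pair by pair, to test whether the difference between Ugi and Control depended on active AID. That difference of differences passed at 0 of 1961 pairs lower and 0 higher (0%; edgeR, with 68 lower, or 3.47%, and 42 higher, or 2.14%, at an unadjusted p under 0.05). With the experiment as a block 15 were lower (0.765%) and 0 higher (0%), and DESeq2 called 19 lower and 4 higher. Among the 15, C268G (log2 difference -4.63, SE 0.68, adjusted p = 0.00117), C151G (-4.21, SE 0.62, adjusted p = 0.00117) and G513C (-5.39, SE 0.90, adjusted p = 0.00301, edgeR with the block) are C-to-G changes at AGCT. The others were G384C, G231C, C385G, C232G and G579C at AGCT, G207C and G237C at other WRCY, and C52G at WRC followed by a purine. The rest were G45T and G45C, at a WRC whose following base is not listed, and G462C and G294T at other C:G positions. G294T is the change that stood high in 2 AID-E58Q Ugi libraries, and with AID it stood at 1.08 to 1.55. The count of 15 was 0, 9 and 6 without experiment 1, 2 or 3, and the unblocked count was 1 without AID-E58Q Ugi of experiment 3 and 2 without experiment 3. G237C, C52G, G45C, G462C and G294T were named after their values were seen.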

How the data were processed

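The deposited tables give, per library and reporter position, the count of calls for each substitution and of calls with Phred quality over 20, the coverage used here. The authors also deposited each fraction, which equals the count divided by that coverage. Per the labels' protocols, 25 cycles of PCR with Pfu Ultra gave the reporter product, which was sheared to 100 to 300 bp and amplified for 10 more cycles. CASAVA 1.7, Novoalign 2.07.04 and SAMtools 0.1.11 are listed, without settings, per the submitters' processing notes.

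Positions with a coverage of at least 1000 in all 18 libraries were kept, and pairs of position and substitution with at least 20 counts were tested. Counts were fitted with edgeR 4.0.16 (R 4.3.3, limma 3.58.1) by its quasi-likelihood test, with log coverage as offset and all 18 libraries in 1 fit. Benjamini-Hochberg adjustment ran over everything tested, at a threshold of 0.05, and every adjusted p in the text comes from this tool unless DESeq2 1.42.0 is named. The ratio of transversions to transitions had a term for each library. Library means were compared by exact permutation tests in SciPy 1.17.1 (Python 3.11.15, pandas 2.3.3). Scripts were tested on simulated data. The experiment number in the titles paired the libraries: same-numbered Ugi and Control libraries deviated together (correlation 0.315 to 0.660 over 1184 pairs, against at most 0.231 for other numbers), so values with the experiment as a block are given where they change a call. Over all groups, which the block covers, these correlations were 0.170 to 0.762 for the same number and at most 0.435 for other numbers, and so overlapped. No 2 libraries of a group were duplicates. Positions named are every AGCT base and the stop codon's G, the 10 largest falls and the 10 largest rises that did not overlap between groups (rises filled from an unadjusted p under 0.05), and the 2 pairs nearest the threshold on each side. These members, motif groups and splits were chosen with earlier results of these data known. The alternatives were the block, the compared groups alone, TMM factors, DESeq2, other count and coverage minimums, the end positions left out, and each library or experiment left out.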

Additional observations from a re-analysis of the deposited data

Results flagged for a closer look

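For 6 values, Ugi stood on one side of Control in all 3 experiments with AID and on the other side in all 3 with AID-E58Q. The AID-E58Q side can rest on few calls. For G231C it rested on 9, 4 and 22 with Ugi and 11, 4 and 12 with Control. The difference between AID and AID-E58Q in the log2 ratio of Ugi over Control, averaged over the experiments, was 1.42 for mean G-to-A and -2.02 for mean G-to-C, and neither difference was tested. For single changes the fitted difference was -3.65 for G207C, -4.83 for G231C, -4.72 for G45T and -5.15 for G513C, and none passed the threshold without the experiment as a block. With the block all 4 passed, as given for the difference of differences above (edgeR).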

How the results depend on the processing

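Counting error, PCR without molecular identifiers and 3 libraries a group limit every value, and the cause of the changes below was not tested. Beside the 12 lower and 0 higher pairs, the experiment as a replicate block gave 60 and 91, the compared groups alone 0 and 0, those groups with the block 38 and 19, DESeq2 42 and 41, and TMM factors 30 and 30. Transitions per position, 0 lower and 0 higher, became 1 and 112 with the block, 1 and 74 with the compared groups and the block, 2 and 65 with DESeq2, 2 and 29 with TMM factors, and 3 higher without the end positions. Transversions per position, 17 lower and 0 higher, became 39 lower with the block, 0 with the compared groups, 50 lower and 1 higher with those groups and the block, 9 lower without the end positions and 26 lower with DESeq2. The ratio of transversions to transitions, 53 lower, became 117 with the block, 34 with the compared groups and 14 with those groups and the block. The difference between AID and AID-E58Q, 0 in each direction, became 15 lower with the block, 15 lower and 1 higher with the compared groups and the block, 19 lower and 4 higher with DESeq2, and 8 lower with TMM factors. The Control transversion share was 39.1% with the mean of the AID-E58Q libraries as background.

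Leaving out 1 library or 1 experiment without the block gave 0 to 20 lower and 0 to 3 higher pairs, 0 to 4 lower and 0 to 66 higher transitions, 0 to 17 lower and 0 higher transversions, 22 to 73 lower and 0 higher ratios, and 0 to 2 lower and 0 higher differences between AID and AID-E58Q. Leaving out experiment 1, 2 or 3 with the block gave 46, 74 and 28 lower and 59, 77 and 17 higher pairs, 1, 0 and 5 lower and 94, 92 and 30 higher transitions, 33, 47 and 12 lower and 0, 1 and 0 higher transversions, 106, 117 and 40 lower ratios, and 0, 9 and 6 lower and 0, 0 and 1 higher differences between AID and AID-E58Q. The log2 ratio of means ranged from 0.73 to 1.89 for C-to-T, 0.42 to 1.57 for G-to-A, -1.65 to -1.13 for C-to-G, -2.19 to -1.47 for G-to-C, -0.61 to -0.18 for C-to-A and -0.89 to -0.45 for G-to-T. The transversion share ranged from -0.981% to 1.09% with Ugi and from 36.4% to 37.1% with Control. Signs turned at 3 changes that had not passed: G150A was -0.48 without Ugi of experiment 3 and at most 2.61 without another library, G231T was 0.0057 with the block and without experiment 3, and G267T (-0.10) was 0.054 with the block, 0.32 with the compared groups and the block, 0.27 with TMM factors, 1.38 without experiment 3 (1.36 with the block) and -0.82 without experiment 2, 0.13 without Ugi of experiment 3 and 1.16 without Control of experiment 3. The fits of the compared groups with the block, of 2 experiments with the block, and without position 294 and positions 45 to 59 were chosen after seeing the data.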
